A study of Mus musculus with 3 samples.

Results

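The 7 genes described here are the MEF2 transcription factors *Mef2a*, *Mef2c* and *Mef2d* and the myogenic regulatory factors *Myod1*, *Myog*, *Myf5* and *Myf6*, taken by symbol from the 16181 genes listed in the tables. All 7 were listed, and *Mef2b*, the remaining MEF2 paralog, was not analysed here. Transcripts were counted by Drop-seq, a droplet method that tags the 3′ end of each captured mRNA with a cell barcode and a unique molecular identifier (UMI), in dissociated cerebella from 3 *Eed* cKO animals aged P7, with a separate library for each animal. All 3 mice were Math1-Cre/Eed fl/fl and untreated, so *Eed*, a core subunit of the PRC2 repressive complex, was deleted by a Cre driven from the *Math1* (*Atoh1*) promoter, which in the cerebellum acts in cerebellar granule neuron progenitors (CGNPs). No WT cells were analysed here, so the comparisons are between cell types of the same mutant cerebella.

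Myogenic regulatory factors are basic helix-loop-helix proteins that pair with E-proteins and bind E-boxes at muscle genes. *Myod1* and *Myf5* act in committed myoblasts, *Myog* drives their terminal differentiation, and *Myf6* acts in differentiating and mature fibers. MEF2 proteins bind a short AT-rich site, cooperate with the myogenic factors in muscle, and in neurons, including granule neurons, regulate survival and synaptic genes in response to activity.

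After filtering, the 3 mice gave 918, 547 and 908 cells with median depths of 919.5, 857 and 1408 UMIs, and no barcode was shared between libraries. Clustering without the 7 genes and 90 genes of their pathways separated 12 types of cell, each named from its markers. A cluster of 77 cells, 27, 20 and 30 per mouse, held 20 of 20 muscle markers at 26916 to 51818 CPM (UMIs per 1000000 UMIs of the group) summed over the list, against 126 to 289 CPM in proliferating CGNP-like cells and 179 to 327 CPM in cells outside the *Atoh1* lineage. It was therefore named myoid-like. The other groups compared were 661 proliferating CGNP-like cells, 538 differentiating CGNP/CGN-like cells, both together (1199 CGNP/CGN-like cells), and 1097 cells of 9 types outside the lineage. Of these, the 159 Purkinje-like cells were not a stable type. At resolutions 0.4 and 1.2 all 159, and without the 5% of cells with most UMIs all 150 that remained, joined differentiating CGNP/CGN-like cells in clusters that received no name, and those alternatives leave these clusters out of every comparison. *Eed* itself was counted at 13.9 to 29.9 CPM over mice in CGNP/CGN-like cells and at 43.4 to 80.2 CPM outside the lineage, and 3′ counts do not show whether a transcript lacks the deleted exons. The myoid-like cells held 4 *Eed* UMIs, at 0 to 35.2 CPM over mice, which overlapped the CGNP/CGN-like cells.

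Windows of 250 bases before the RefSeq start sites (GRCm38.p6) were found for 5 of the 7 genes, 7 windows in all, and those of *Myod1* and *Myf6* were not used here. The 7 windows were searched on both strands for the MEF2-type word CTANNNNTA and for the E-box CANNTG. Of 32851 mouse windows of this length, 19.0% held the MEF2-type word, 66.2% an E-box and 12.97% both. Among the 7 windows, the only ones with both were that of *Myog* and 1 of 3 for *Mef2c*, the 2 genes counted most in myoid-like cells, and they are printed for that reason with matches in capitals. *Myog* lies on the plus strand of chromosome 1 (134289989 to 134292548) and its window is chr1:134289754-134290003, the last bases of which lie inside the annotated gene. *Mef2c* lies on the plus strand of chromosome 13 (83504034 to 83667080) and its window, chr13:83573357-83573606, lies within the gene, before an internal start.
Myog: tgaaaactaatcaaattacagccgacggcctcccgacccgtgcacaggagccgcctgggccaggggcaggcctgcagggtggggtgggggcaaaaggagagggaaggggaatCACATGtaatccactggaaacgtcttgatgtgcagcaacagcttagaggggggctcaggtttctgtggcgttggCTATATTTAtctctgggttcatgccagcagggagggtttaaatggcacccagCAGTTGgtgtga
Mef2c: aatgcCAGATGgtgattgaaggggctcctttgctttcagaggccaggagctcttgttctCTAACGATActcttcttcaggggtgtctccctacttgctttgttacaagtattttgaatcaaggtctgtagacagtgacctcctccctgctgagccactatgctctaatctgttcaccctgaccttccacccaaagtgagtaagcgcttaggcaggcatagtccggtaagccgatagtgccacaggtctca
In the *Myog* window the MEF2-type word CTATATTTA begins at position -64 from the start and E-boxes begin at -138 and -12. In the *Mef2c* window the word CTAACGATA begins at -191 and an E-box at -245. A match of letters is a description of the sequence and does not show binding.

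*Myog* was the most abundant of the 7 genes in myoid-like cells, at 3603, 5294 and 3979 CPM in mice 1, 2 and 3 (4292 ± 888 CPM, SD, n = 3). In CGNP/CGN-like cells it was at 12.3, 58.6 and 35.1 CPM, and outside the lineage at 10.1, 24.7 and 7.03 CPM. The lowest myoid-like value was far above the highest value of any other group. The fitted log2 fold change was 6.96 ± 0.35 (SE) against CGNP/CGN-like cells (adjusted p = 1.93e-18, edgeR quasi-likelihood test with Benjamini-Hochberg adjustment) and 8.57 ± 0.36 against cells outside the lineage (edgeR adjusted p = 2.57e-11).

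*Mef2c* followed, at 2677, 1583 and 2606 CPM in myoid-like cells (2289 ± 612 CPM), against 56.2, 83.7 and 70.2 CPM in CGNP/CGN-like cells and 109, 86.4 and 70.3 CPM outside the lineage. It was 5.10 ± 0.31 (SE) higher on the log2 scale than in CGNP/CGN-like cells (edgeR adjusted p = 2.32e-16) and 4.73 ± 0.31 higher than outside the lineage (edgeR adjusted p = 3.08e-09). *Mef2a* was higher by less. It was at 600, 693 and 704 CPM in myoid-like cells (666 ± 56.9 CPM), 131 ± 10.4 CPM in CGNP/CGN-like cells and 144 ± 17.9 CPM outside the lineage. The log2 fold changes were 2.37 ± 0.28 (edgeR adjusted p = 1.30e-08) and 2.20 ± 0.28 (edgeR adjusted p = 9.10e-06). The groups did not overlap for either gene.

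*Myod1* was at 325, 247 and 317 CPM in myoid-like cells (297 ± 42.8 CPM), below *Myog* in each mouse. CGNP/CGN-like cells held it at 15.8, 58.6 and 48.5 CPM, a log2 difference of 3.00 ± 0.42 (SE; edgeR adjusted p = 4.90e-07). Cells outside the lineage held 0 *Myod1* UMIs of 1409935. A count of 0 allows 3 counts over the group, and by pooled UMIs *Myod1* in myoid-like cells was 145-fold that level. Such a fold leaves out the counting error of the higher group. *Mef2d*, the least counted MEF2 gene, was at 150, 49.5 and 82.2 CPM in myoid-like cells from 14 UMIs, against 19.3, 8.37 and 13.4 CPM in CGNP/CGN-like cells (log2 fold change 2.78 ± 0.58, edgeR adjusted p = 0.000344). *Mef2d* passed the filter on low counts through the myoid-like cells alone, which fixed its direction.

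Both remaining factors were rare. *Myf6* had 13 UMIs in 9 myoid-like cells, at 100, 0 and 106 CPM in mice 1, 2 and 3, and 0 UMIs in every other cell kept. By pooled UMIs it was 45.5-fold the level that 3 counts would give in CGNP/CGN-like cells. *Myf5* had 5 UMIs in 2 myoid-like cells of mouse 3 and 1 UMI in a differentiating CGNP/CGN-like cell of that mouse. At this depth, 3 counts would be 148 CPM in the myoid-like cells of mouse 2, so the zeros of that mouse do not show absence.

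In the first of these comparisons 5 of the 7 genes passed the filter on low counts and all 5 were called higher, and in the second 4 passed and 4 were called higher. Of all genes tested, 8.65% and 11.5% were called higher, and in the second 25.7% in either direction. *Mef2d* passed the first filter, and *Myod1* and *Myog* the second, through their level in the myoid-like cells alone, so the count of genes called is not itself a result. For *Mef2a* and *Mef2c* both calls, and for *Myod1* and *Myog* the call against CGNP/CGN-like cells, were retained under each of the 13 alternatives run. The calls of *Myod1* and *Myog* against cells outside the lineage, and of *Mef2d* against CGNP/CGN-like cells, were fixed by the filter. Their retention says nothing of stability.

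**Figure D1:**
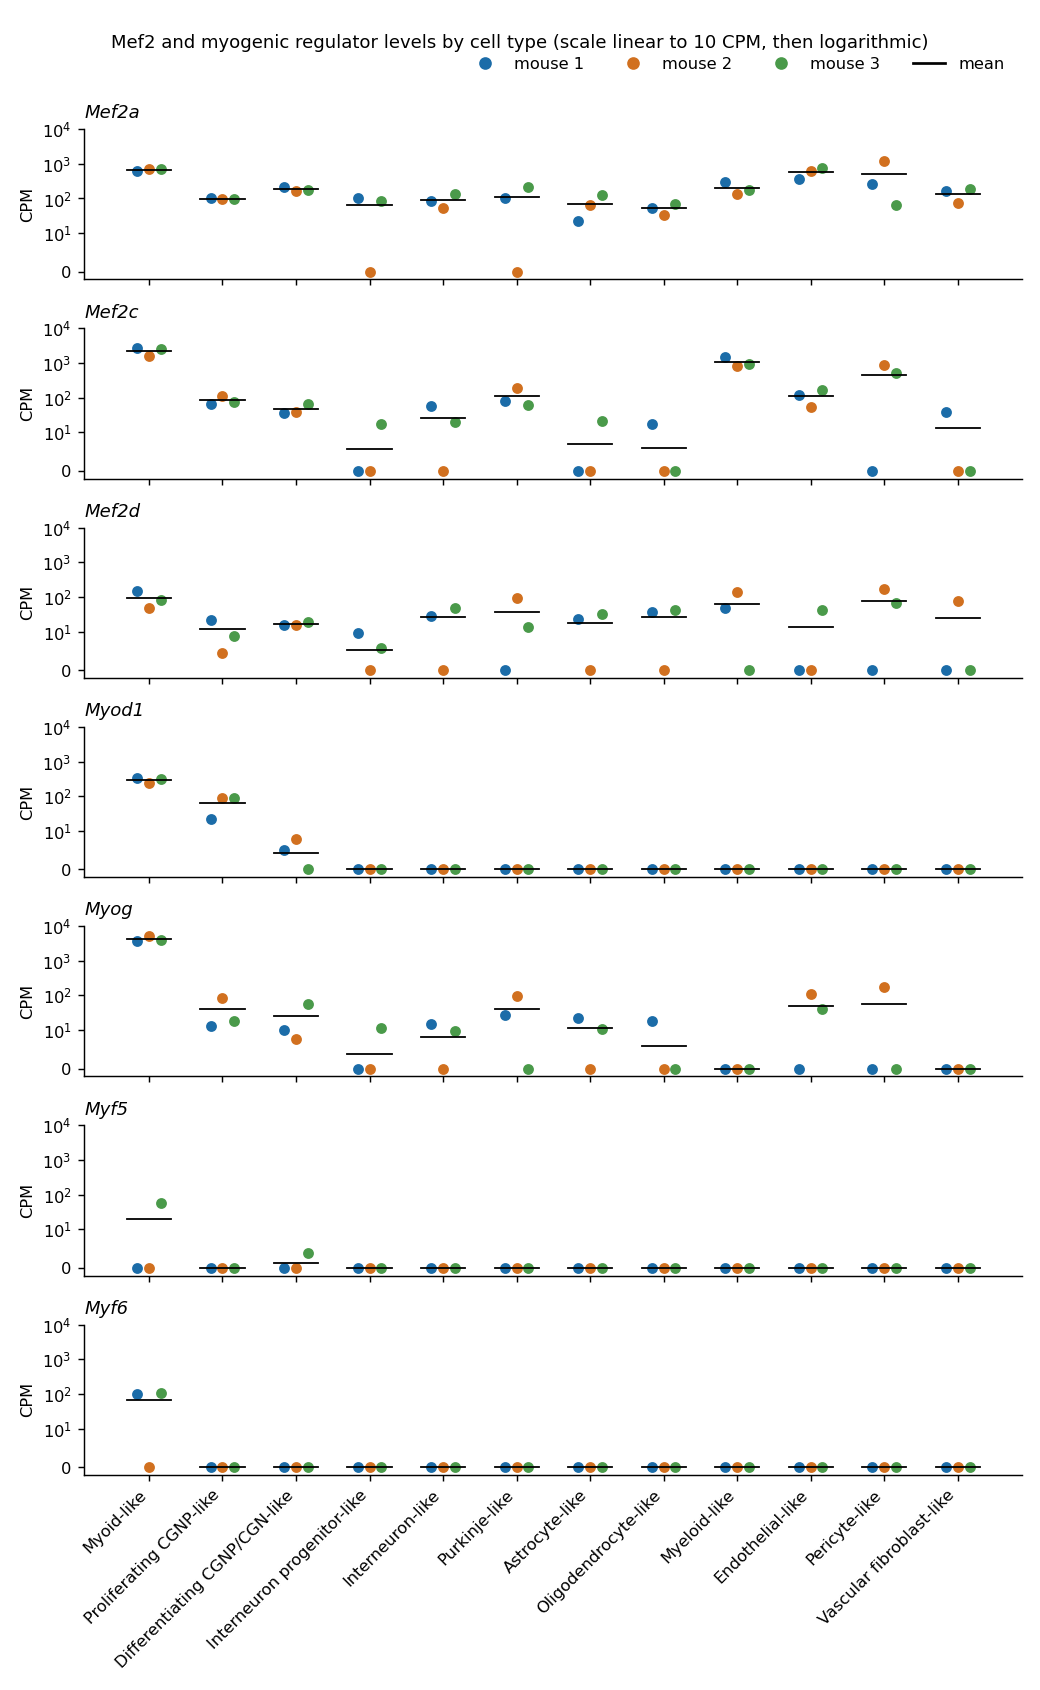
Level of each of the 7 genes in 12 types of cell. Points are single mice, bars are means, and the vertical axis is CPM, linear up to 10 CPM and logarithmic above. *Myog* is at 3603 CPM or more in the myoid-like cells of every mouse and no higher than 171 CPM in any other type, while *Mef2a* and *Mef2c* are counted in several types.

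**Figure D2:**
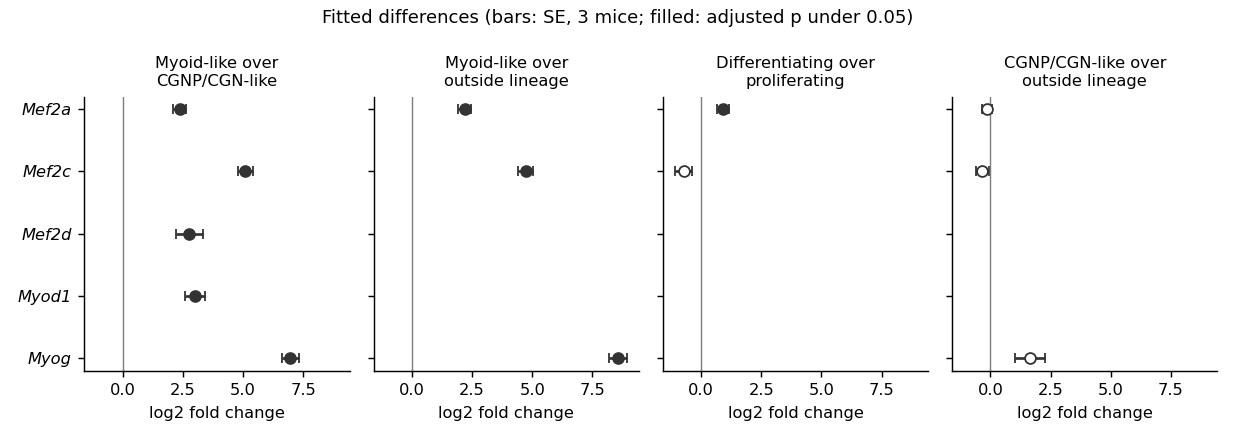
Fitted log2 fold changes of the genes that passed the filter in 4 comparisons. Points are estimates, bars are SE over 3 mice and filled points have an adjusted p under 0.05 (edgeR). *Myod1* against cells outside the lineage is left out because that group held 0 UMIs. The 2 comparisons of myoid-like cells show each plotted gene well above 0, and the 2 comparisons among other cells show smaller differences of either sign. *Mef2d* against CGNP/CGN-like cells and *Myog* against cells outside the lineage passed the filter through the myoid-like cells alone, which fixed their direction.

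The order of cell types differed between the paralogs. For *Mef2c* the myoid-like cells (1583 to 2677 CPM over mice) were followed by myeloid-like cells at 1456, 828 and 936 CPM (62 UMIs, 33 of 49 cells), with no overlap between them, and then by pericyte-like cells at 0, 854 and 524 CPM from 13 UMIs, which overlapped the myeloid-like cells. All other types averaged at most 114 CPM. In a joint fit over the 12 types, each was set against the mean of the others. A gene with 0 UMIs in a whole type has no finite level there and was not tested, which left 1597 of 2139 genes, *Mef2a* and *Mef2c* among them and *Myog* not. *Mef2c* passed the filter of this fit only through myoid-like, myeloid-like and pericyte-like cells, where it was high. *Mef2a* passed only through myoid-like, endothelial-like, pericyte-like and myeloid-like cells. The calls of higher levels in such types therefore describe the order of types and are not independent tests. *Mef2c* was higher in myoid-like cells (log2 difference 5.45 ± 0.24, SE), in myeloid-like cells (4.39 ± 0.36, edgeR adjusted p = 4.38e-15) and in pericyte-like cells (2.52 ± 0.60, edgeR adjusted p = 0.0037). The share of all genes called in either direction was 23.7%, 14.9% and 6.26% in these 3 types. The pericyte-like call was lost without mouse 2 (edgeR adjusted p = 0.141). Without mouse 1 or mouse 3 some type held 0 *Mef2c* UMIs, so the *Mef2c* calls have no value there.

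For *Mef2a* the myoid-like cells (600 to 704 CPM) and the endothelial-like cells (371, 602 and 774 CPM, 42 UMIs) overlapped. Pericyte-like cells, at 65.4 to 1196 CPM over mice from 10 UMIs, overlapped them and were not called. Myoid-like and endothelial-like cells stood above the mean of the other types, by 2.13 ± 0.28 and 1.85 ± 0.35 on the log2 scale (edgeR adjusted p = 2.33e-08 and 4.18e-05), where 16.3% of genes were called in endothelial-like cells. *Mef2a* was lower than that mean in proliferating CGNP-like, interneuron progenitor-like and oligodendrocyte-like cells and *Mef2c* in the latter 2 types (edgeR adjusted p from 0.00199 to 0.0286, with 34.4%, 21.9% and 11.8% of genes called). The 3 *Mef2a* calls were each lost whichever mouse was left out. Those in proliferating CGNP-like and interneuron progenitor-like cells were also lost without the filter on low counts, where the difference in proliferating cells was -0.35 against -0.91. *Mef2d*, *Myod1*, *Myf5* and *Myf6* did not pass the filter of the joint fit. Neither *Mef2a* nor *Mef2c* was called in differentiating CGNP/CGN-like, interneuron-like, Purkinje-like, astrocyte-like or vascular fibroblast-like cells, where 21.7%, 25.0%, 26.0%, 12.0% and 10.6% of genes were. With the mouse as a block *Mef2c* was called lower in astrocyte-like and interneuron-like cells (edgeR adjusted p = 0.0385 and 0.0306, against 0.0693 and 0.0635 without it). *Mef2d* was at 93.9 ± 51.3 CPM in myoid-like cells and between 5.15 and 78.8 CPM on average in other types, with ranges that overlapped from each type to the next. Of *Myog*, the 11 types other than myoid-like held 63 UMIs, with 0 in myeloid-like and vascular fibroblast-like cells.

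As shares of the UMIs of the 3 paralogs, *Mef2c* made up 78.1%, 68.1% and 76.8% in the myoid-like cells of mice 1, 2 and 3 (74.3 ± 5.45%, SD, 361 of 473 UMIs). In CGNP/CGN-like cells *Mef2a* led with 61.0 ± 4.24%, and *Mef2c* made up 26.0%, 39.5% and 32.6% (32.7 ± 6.73%). The difference in the *Mef2c* share was 41.7 percentage points, and the groups did not overlap (exact two-sided permutation test, p = 0.1, the smallest that 3 values against 3 allow). Both groups come from the same 3 mice, and exact sign flips within a mouse, added after seeing the data, gave p = 0.25, the smallest they allow. Within the granule lineage the *Mef2c* share was 42.8 ± 8.74% in proliferating and 18.7 ± 5.51% in differentiating cells, again without overlap (exact permutation p = 0.1). None of 18 comparisons of paralog shares between pairs of the 4 separate groups could pass a threshold of 0.05, and the lowest adjusted p was 0.15. Each UMI counts 1 captured 3′ end, so shares need no correction for transcript length, but capture may differ between genes. Myeloid-like cells had a *Mef2c* share of 80.0 ± 4.54% (62 of 76 UMIs), which overlapped the myoid-like values. The myoid-like cells with the lower level of muscle markers, described next, had 43.3 ± 15.3% (12 of 30 UMIs), which overlapped proliferating CGNP-like cells.

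**Figure D3:**
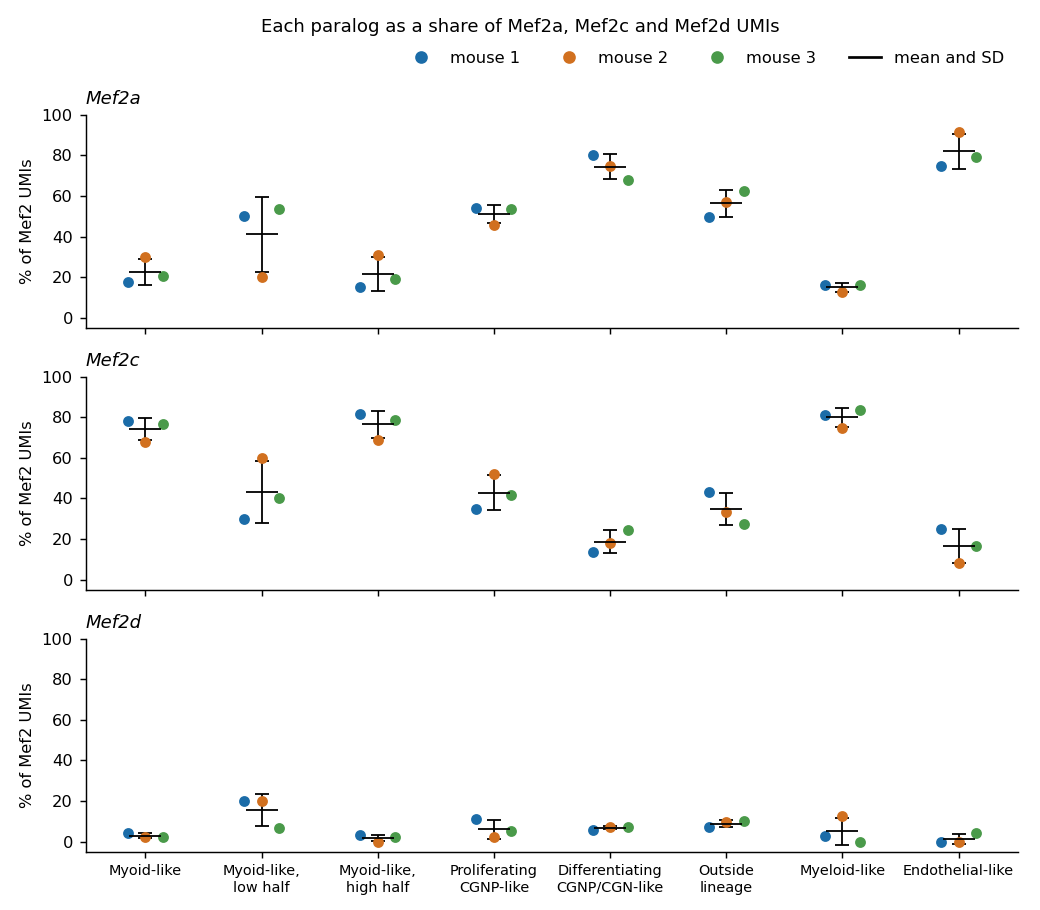
Each paralog as a percentage of all *Mef2a*, *Mef2c* and *Mef2d* UMIs in 8 groups of cells. Points are mice and bars are the mean and SD (n = 3). *Mef2c* makes up 68.1% or more in the myoid-like cells of every mouse and 13.7% to 24.6% in differentiating CGNP/CGN-like cells, while it averages 80.0% in myeloid-like cells and 43.3% in the low-marker myoid-like cells. The 2 marker-level groups divide the myoid-like cells of each mouse at the median share of UMIs from muscle markers.

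Among the 77 myoid-like cells, *Mef2c* was higher and *Myog* lower in the cells with more transcripts of muscle structural genes. The cells of each mouse were divided at the median share of their UMIs that came from the 20 muscle markers, a division chosen after these values were seen and given as a description without a test. In the high-marker cells *Mef2c* was at 4001, 2689 and 3844 CPM, and in the low-marker cells at 215, 318 and 207 CPM. *Mef2a* was at 731, 1205 and 926 CPM in the high-marker cells against 358, 106 and 276 CPM. *Myog* was lower in the high-marker cells of every mouse, at 2462, 4543 and 2616 CPM against 5726, 6153 and 6618 CPM. Most of this *Myog* lay in the cells just above the median. The 4 high-marker cells of each mouse nearest to it, a number chosen after the values were seen, held 42 of 64, 40 of 49 and 109 of 147 *Myog* UMIs, at 9537, 8574 and 7959 CPM, above the low-marker cells. The rest of the high-marker cells were at 1019, 1471 and 894 CPM. For these 3 genes the groups did not overlap. *Myod1* was at 310 ± 119 CPM in the high-marker and 257 ± 98.9 CPM in the low-marker cells, which overlapped. All 13 *Myf6* UMIs and all 5 *Myf5* UMIs of the myoid-like cells lay in the high-marker cells, and each of the 9 cells with *Myf6* also had *Mef2c*.

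The low-marker cells were not devoid of muscle transcripts. They held 16 of 20 muscle markers at 3206 to 9948 CPM over mice, and 35 of the 38 had a UMI of a myogenic regulatory factor, but *Mylpf*, *Neb*, *Tnnt3* and *Casq2* were at 0. Markers of proliferating CGNPs were at 470 ± 252 CPM in the low-marker cells and 78.1 ± 104 CPM in the high-marker cells, from 26 and 12 UMIs. Both levels were below the 1572 ± 251 CPM of cells outside the lineage. Median depth was 1112.5 UMIs in the low-marker and 1899 UMIs in the high-marker cells. The part of depth or of other cells' transcripts in this difference was not tested. With each cell thinned to 500 UMIs, *Mef2c* was seen in 63.8 ± 21.1% of the high-marker and 12.9 ± 2.72% of the low-marker cells, and *Myog* in 64.6 ± 22.6% and 88.2 ± 10.5%.

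Over single cells the pattern was similar in direction within each mouse. Spearman's rho between *Mef2c* CPM and the muscle share was 0.76, 0.51 and 0.81 over 27, 20 and 30 cells, and for *Myog* it was -0.42, -0.51 and -0.18. Over all 77 cells *Myog* gave a rho of -0.37 and a Pearson's r of -0.056 on log2 values, and *Mef2c* 0.76 and 0.65. Both measures share the total UMIs of a cell, and the values are descriptive. The relation of *Myog* was not monotonic. Its median was 7708 CPM in the 33 cells with 0.5% to 3% of UMIs from muscle markers and 434 CPM in the 21 cells above 5%, of which 17 still had a *Myog* UMI, 20 a *Mef2c* UMI and 18 a *Mef2a* UMI. Of 6 cells without any muscle marker UMI, 3 had *Myog* and 0 had *Mef2c*.

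**Figure D4:**
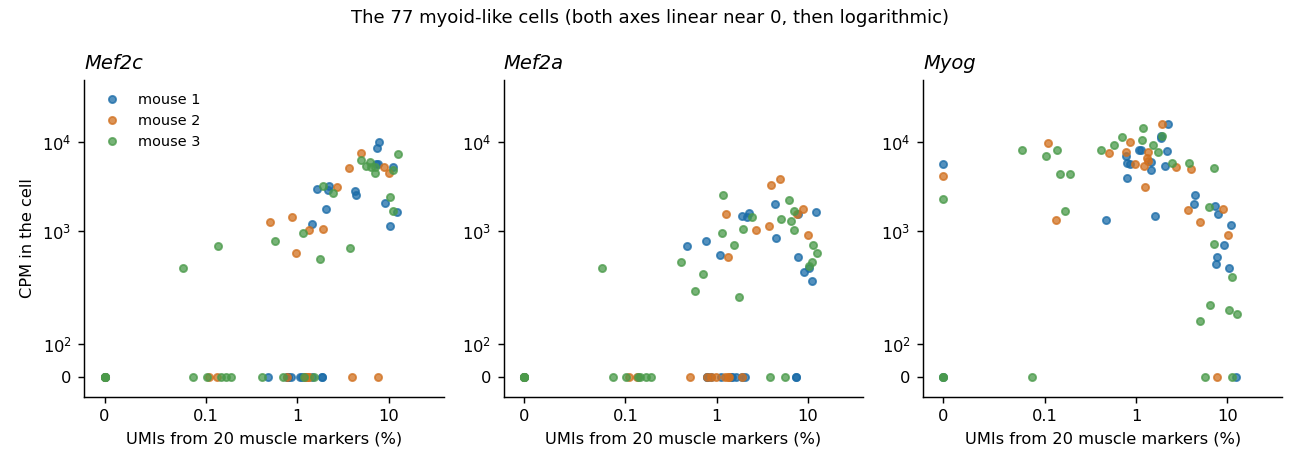
*Mef2c*, *Mef2a* and *Myog* in each of the 77 myoid-like cells against the percentage of the cell's UMIs from 20 muscle markers, colored by mouse. Both axes are linear near 0 and logarithmic above. Cells above 5% on the horizontal axis hold *Mef2c* in 20 of 21 cases, with *Myog* at a median of 434 CPM, and cells between 0.5% and 3% have a median *Myog* level of 7708 CPM.

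*Myod1* was also counted in CGNP-like cells. Proliferating CGNP-like cells held 8, 20 and 29 *Myod1* UMIs in mice 1, 2 and 3 (21.4, 86.7 and 86.0 CPM), in 43 of 661 cells. Differentiating CGNP/CGN-like cells held 2 UMIs in 538 cells (5.10, 7.81 and 0 CPM), and the 1097 cells outside the lineage held 0, which allows up to 0.273% of cells with a UMI by the 3 counts that a count of 0 allows, and up to 0.336% by the exact 95% interval. This limits cells with a UMI and not cells that express the gene. Of myoid-like cells, 34.3 ± 17.2% had a *Myod1* UMI. The proliferating cells were above both other groups in every mouse, with no overlap (exact two-sided permutation test, p = 0.1 in both cases, the smallest possible with 3 values against 3). Sign flips within the 3 mice gave an exact p of 0.25 in both cases, again the smallest possible. By pooled UMIs the level was 17.7-fold that of differentiating cells (exact 95% interval 4.68 to 150, counting error only). It was 28.5-fold the level that 3 counts would give in cells outside the lineage. *Myod1* did not pass the filter on low counts in these comparisons with all 3 mice. Without mouse 1 it passed through the proliferating cells alone, which fixed its direction, and was called lower in differentiating cells (edgeR adjusted p = 0.00135). Without that filter edgeR called it lower in differentiating than in proliferating cells (adjusted p = 2.83e-07), and the difference between proliferating cells and cells outside the lineage was not fitted.

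The share of proliferating cells with a *Myod1* UMI was 2.35%, 7.69% and 12.9% per mouse, so it was lowest in mouse 1, and 2.09 ± 1.57% when each cell was thinned to 500 UMIs. Median depths were 1157 UMIs in proliferating, 900.5 in differentiating and 1015 in outside cells. *Myod1* was found in both proliferating clusters, 19 UMIs in the 384 cells of 1 and 38 UMIs in the 277 cells of the other, whose leading genes included *Mki67* and *Top2a*. In mouse 1 the first of these clusters held 0 *Myod1* UMIs.

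Of the 43 *Myod1*-positive progenitors, 3 had *Myog* (6.98%, against 13 of 618 other proliferating cells, 2.10%). The exact 95% intervals, 1.46% to 19.1% and 1.12% to 3.57%, overlapped. For *Mef2c* the cells were 5 of 43 (11.6%, 3.89% to 25.1%) and 61 of 618 (9.87%, 7.63% to 12.5%), at median depths of 1776 and 1118.5 UMIs. Of the 43, 0 had 5 or more UMIs of the 20 muscle markers, with a summed marker level of 194 ± 180 CPM against 193 ± 81.4 CPM in the other proliferating cells. Their markers of proliferating CGNPs were at 5641 ± 1693 CPM, against 4674 ± 534 CPM, which overlapped. Markers of differentiating CGNP/CGN cells were lower in them, at 1252 ± 456 CPM against 2611 ± 55.4 CPM, without overlap. *Myod1* made up 64.8% of the *Myod1* and *Myog* UMIs of proliferating cells (57 of 88, exact 95% interval 53.9% to 74.7%), 7.09% in myoid-like cells (45 of 635, 5.22% to 9.37%) and 0 of 14 outside the lineage. The intervals of the first 2 groups did not overlap, and the 14 UMIs outside the lineage allow a share of up to 23.2%.

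*Myog* outside the myoid-like cells was spread over most types. It was seen in 16 of 661 proliferating (2.42%), 6 of 538 differentiating and 14 of 1097 outside cells (1.28%). Each of the 14 outside cells held 1 UMI, as did 9 of the 16 proliferating and 5 of the 6 differentiating cells. The source of these UMIs was not tested. Of the 18 *Myog* UMIs in differentiating cells, 13 lay in 1 cell of mouse 3. The fitted level in CGNP/CGN-like cells was 1.65 ± 0.62 (SE, log2) above that outside the lineage, which did not pass the threshold (edgeR adjusted p = 0.108) and did with the mouse as a block (adjusted p = 0.0329).

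**Figure D5:**
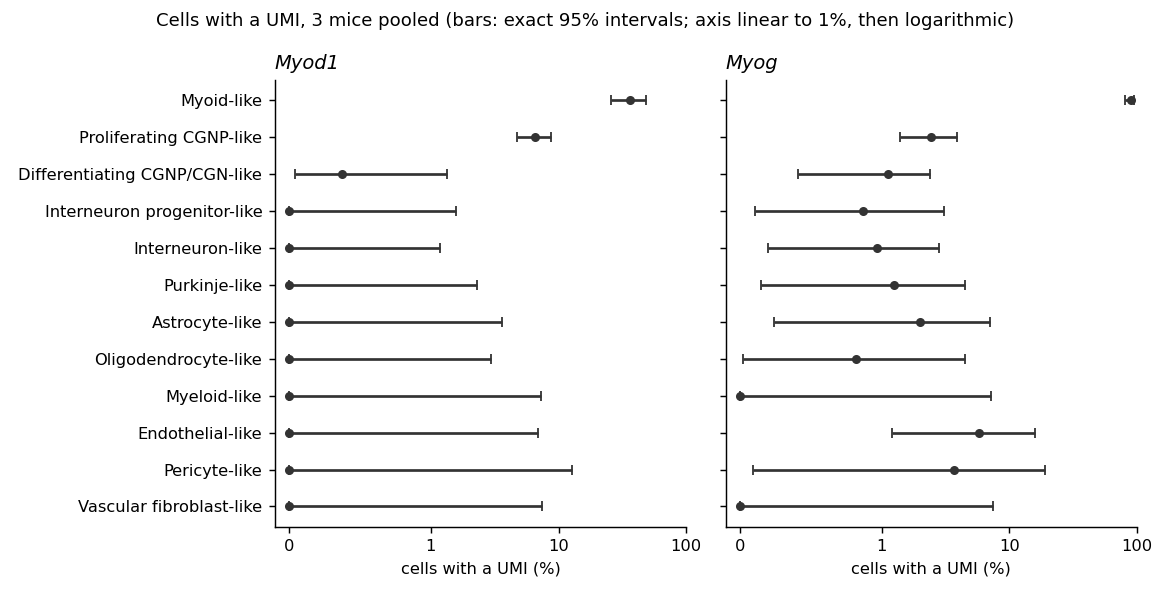
Percentage of cells with a *Myod1* or *Myog* UMI in each of 12 types, 3 mice pooled. Bars are exact 95% binomial intervals, which cover counting error only, and the axis is linear up to 1% and logarithmic above. *Myod1* is seen in myoid-like and proliferating CGNP-like cells, in 2 differentiating cells and at 0 in all 9 types outside the lineage, whereas *Myog* is seen at a low share in most types.

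Within the granule lineage, *Mef2a* rose from proliferating to differentiating cells. It was at 104, 95.4 and 94.9 CPM in proliferating and 209, 164 and 180 CPM in differentiating cells, without overlap, and the log2 difference was 0.91 ± 0.24 (SE, edgeR adjusted p = 0.00663). Of all genes tested, 14.6% were called higher. The call was lost without mouse 1 (adjusted p = 0.0666) and in cells with at least 1000 UMIs (0.0552), with differences of 0.88 and 0.94. *Mef2c* was at 67.0, 108 and 74.2 CPM in proliferating and 35.7, 39.1 and 65.1 CPM in differentiating cells, a log2 difference of -0.72 ± 0.37 that did not pass the threshold (edgeR adjusted p = 0.155). Without the 5% of cells with most UMIs it was -1.24 and passed (edgeR adjusted p = 0.039). The difference between the 2 paralogs was tested only as the share given above. *Mef2d* was at 11.6 ± 8.85 and 16.7 ± 2.14 CPM in the same cells and was too low to be tested.

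No MEF2 gene was called between the granule lineage and the cells outside it. The log2 difference was -0.14 ± 0.21 for *Mef2a* (edgeR adjusted p = 0.766) and -0.33 ± 0.27 for *Mef2c* (edgeR adjusted p = 0.524), and 0 of the 3 members tested were called by edgeR or by DESeq2, where 3.75% of all genes were called higher, 7.98% lower and 11.7% in either direction. At an unadjusted p under 0.05, the edgeR quasi-likelihood test fitted across all genes would have called 1, *Myog*. The sign of both MEF2 differences changed with the cells or mice used. Of the 90 pathway genes 36 were tested here, of which 2 were higher in the granule lineage and 12 lower, with a median log2 difference of -0.36 against 0.01 over all genes. *Hey1* was higher in the lineage, at 100 ± 23.0 against 26.6 ± 18.8 CPM. The genes lowest in the lineage were the helix-loop-helix inhibitors *Id4*, *Id3* and *Id1*, at log2 differences of -4.54, -4.51 and -3.63, and *Lbx1*, a homeobox factor of limb muscle precursors and some neurons, at -3.21 (edgeR adjusted p from 5.07e-06 to 0.000301 for the 4 genes). All 4 passed the filter through the cells outside the lineage alone, so their direction was fixed by it.

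The genes that work with these factors were described from a list of 107, of which 90 were listed. Among 30 listed targets of myogenic factors and genes of fusion, 15 passed the filter in myoid-like against CGNP/CGN-like cells, of which 14 were higher and 0 lower, where 8.65% of all genes were called higher and 11.4% lower. The median log2 difference was 6.14 against -0.11 over all genes tested. Of the 15, 14 passed the filter through the myoid-like cells alone, so neither the count nor the median is a result about the list. *Tceal7* was at 1240 ± 794 against 2.34 ± 4.06 CPM and *Lmod3*, which caps and nucleates the thin filament, at 356 ± 101 against 0.585 ± 1.01 CPM. *Vgll2*, a cofactor of TEAD proteins, and *Hspb3*, a small heat shock protein of muscle, were at 203 ± 47.3 and 111 ± 79.3 CPM against 0 UMIs in CGNP/CGN-like cells. In the comparison with non-lineage cells 12 passed, of which 11 were higher, where 11.5% of all genes were called higher. Of these 12, 11 passed through the myoid-like cells alone. Those called include *Chrna1*, the muscle acetylcholine receptor subunit, at 252 ± 48.7 CPM against 0 UMIs, and *Ckm*, muscle creatine kinase, at 340 ± 71.6 against 0.845 ± 1.46 CPM.

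Of 12 listed inhibitors of helix-loop-helix factors, 3 passed the filter against CGNP/CGN-like cells and 2 were lower in myoid-like cells, where 11.4% of all genes were called lower. *Hes1* was not called (log2 difference -1.93, edgeR adjusted p = 0.0611), but 8 of the 13 alternatives called it lower (adjusted p from 0.00159 to 0.357 over all 13). Without the filter *Id1*, *Id3* and *Id4* were at log2 differences of 0.59, 0.44 and 2.33 and were not called. *Id2*, which sequesters E-proteins, was at 31.8 ± 35.7 against 358 ± 8.07 CPM (log2 fold change -2.86 ± 0.47, edgeR adjusted p = 9.58e-06), and *Hey1*, a Notch effector, at 3.91 ± 6.78 against 100 ± 23.0 CPM (edgeR adjusted p = 0.00264). *Hey1* passed through the CGNP/CGN-like cells alone, which fixed its direction. In the comparison with non-lineage cells 4 passed and all 4 were lower, where 14.2% of all genes were called lower, but all 4 passed through the non-lineage cells alone. Among them were *Id3* (12.3 ± 12.5 against 205 ± 62.3 CPM) and *Hes1* (24.3 ± 24.7 against 192 ± 43.4 CPM). The median log2 difference of those tested was -2.86 and -2.98, against -0.11 and -0.04 over all genes, which the filter bears on in the same way.

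The 3 E-protein genes, *Tcf3*, *Tcf4* and *Tcf12*, whose products pair with the myogenic factors, were tested in every comparison, and 0 of 3 were called in myoid-like against CGNP/CGN-like cells. In differentiating against proliferating cells *Tcf12* was higher, at 308 ± 65.4 against 156 ± 13.6 CPM (edgeR adjusted p = 0.00252). *Tcf4* was also called higher (1061 ± 118 against 722 ± 140 CPM, edgeR adjusted p = 0.0377) and *Tcf3* lower (log2 difference -0.88 ± 0.30, edgeR adjusted p = 0.0356), and both calls were lost without mouse 1, without mouse 2, with DESeq2 and in cells with at least 1000 UMIs. The *Tcf3* call was also lost at resolution 1.2 and with no genes held out of the clustering, and the *Tcf4* call without the filter. Of all genes, 14.6% were called higher and 13.9% lower. Against non-lineage cells *Tcf4* was lower in myoid-like cells (697 ± 112 against 1392 ± 261 CPM, edgeR adjusted p = 0.0056), a call lost without mouse 3 (adjusted p = 0.0658). The difference was shared with the granule lineage. There *Tcf4* was lower than in non-lineage cells by log2 differences of -0.96 to -0.63 over 13 fits, 10 of which called it. Of 11 listed upstream factors 3 passed the filter in myoid-like against CGNP/CGN-like cells, and *Six4* alone was called, higher in myoid-like cells (edgeR adjusted p = 0.000164), the group through which alone it passed. Among 15 listed coactivators and kinases 5 passed and 2 were higher, where 8.65% of all genes were called higher, *Smarcd3*, a muscle subunit of the SWI/SNF complex (log2 difference 1.70, adjusted p = 0.00442, lost without mouse 1 at 0.158), and *Tead1* (1.14, adjusted p = 0.0457, lost under 9 of 13 alternatives). None of the 4 listed class II deacetylases and other MEF2 repressors passed this filter.

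Of 15 listed activity-dependent MEF2 targets of neurons 6 passed and 1 was called, *Gria2*, a glutamate receptor subunit, lower in myoid-like cells at 36.6 ± 12.3 against 234 ± 28.5 CPM, where 11.4% of all genes were called lower. Against non-lineage cells 4 of 6 were lower in myoid-like cells, *Fos*, *Gria2*, *Jun* and *Klf6*, with a median log2 difference of -1.64 where 14.2% of all genes were called lower. Of these 6, *Gria2* and *Klf6* passed the filter through the non-lineage cells alone, and the calls of *Jun* and *Klf6* were lost without mouse 1 and without mouse 2. The *Jun* call was also lost in cells with at least 1000 UMIs (edgeR adjusted p = 0.0557). Between the granule lineage and the same non-lineage cells 4 of 8 were lower, *Fos*, *Junb*, *Klf6* and *Pcdh17*, with a median of -1.01 where 7.98% were called lower. The *Klf6* call was lost without mouse 2. The *Pcdh17* call was lost without mouse 1, without mouse 3 and at resolutions 0.4 and 1.2. In differentiating against proliferating cells, where *Mef2a* rose, 7 of this list passed the filter, 1 was higher and 2 were lower, where 14.6% of all genes were called higher and 13.9% lower. *Gria2* rose by 1.56 ± 0.23, while the immediate early genes *Fos* and *Egr1* fell by 1.55 and 1.12 on the log2 scale (edgeR adjusted p = 3.39e-05, 0.00618 and 0.000813), the *Fos* call being lost without mouse 3 and in cells with at least 1000 UMIs (adjusted p = 0.15 and 0.0845). *Hes1*, *Smarcd3*, *Lbh* and *Dach1* also passed, at log2 differences of -2.43, -2.04, 1.90 and 1.06, the *Dach1* call being lost in cells with at least 1000 UMIs (edgeR adjusted p = 0.0837). *Smarcd3* passed the filter through the proliferating cells alone and *Lbh* through the differentiating cells alone, which fixed their direction.

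The genes whose levels ran most like a member's over 36 sums (12 types in 3 mice) differed between the paralogs. By Pearson's r of log2(CPM + 50) over 8502 genes, *Myog* was closest to *Ckm* (0.945), *Sln* (0.942), *Lmod3*, *Tnnt2* and *Tnni1* (0.932), and *Myod1* to *Car3* (0.970), *Tnnt2* (0.915), *Traf3ip3*, *Lmod3* and *H19*. *Mef2c* was closest to *Ehd4* (0.778), *Tnni2* (0.772), *Traf3ip3*, *Klhl41* and *Myl4*, and *Mef2a* to *Tubb6* (0.797), *Myl12a* (0.715), *Tfrc*, *Plekhf2* and *Vasp*. *Mef2d*, with 69 UMIs, was closest to *Mef2c* (0.630), followed by *Atp5b*, *Slc39a13*, *Maml3* and *Rer1*. The sums share 3 libraries and the myoid-like group sets much of the spread, so r is a description. Between members it was 0.891 for *Myod1* and *Myog*, 0.681 for *Mef2c* and *Myog*, and 0.593 for *Mef2a* and *Mef2c*.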

How the data were processed

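The authors deposited unnormalized UMI counts for each gene in each barcode, 1 table per mouse. The submitters' processing notes name STAR and mm10. Versions and the counting strand are not given in the sources used here. Without strand, reads of *Mef2a* and of *Mef2d* cannot be told apart from those of genes that overlap them on either strand. Cells with at least 500 UMIs and 200 genes, at most 10% mitochondrial UMIs and no more UMIs or genes than the median plus 4 SD of the library were kept, 2373 of 3481 barcodes with 3081202 UMIs. No doublet caller was run. No annotation of cells was used, so cells were clustered (Seurat 5.3.0, sctransform 0.4.2, 15 components, resolution 0.8) and named from markers by a rule set after the clusters were seen.

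For each group of cells the UMIs of a mouse were added up, and these sums entered edgeR 4.0.16 (quasi-likelihood, TMM, filterByExpr). P-values were adjusted by Benjamini-Hochberg across every tested gene, with a threshold of 0.05. In the joint fit over cell types, genes at 0 UMIs in a type were left out of the tests and the adjustment, a step added after seeing the data because their contrasts diverged. P-values measure the spread between these 3 mice. Steps were tested on simulated data. Alternatives were other size factors, DESeq2 1.42.0, no filter, the mouse as a block, leaving out each mouse, other cells and other clusterings. Groups compared come from the same animals, and deviations of sums of the same mouse correlated at 0.0788 to 0.272 in the comparisons of myoid-like cells, 0.188 to 0.304 in differentiating against proliferating cells and 0.206 to 0.393 between the granule lineage and other cells. Intervals and floors of 3 counts cover counting error only. The members and the gene lists were chosen with earlier results of these data known. Named pathway genes are the 4 with the largest and the 4 with the smallest fold change called in each comparison and changed the same way in every mouse. A gene that this rule names is not reported here. *Six4*, *Smarcd3* and *Tead1* in myoid-like against CGNP/CGN-like cells, *Hes1*, *Id1*, *Id3* and *Id4* there, and *Tcf3*, *Tcf4*, *Fos*, *Jun*, *Junb*, *Klf6* and *Pcdh17* were named after their values were seen.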

Additional observations from a re-analysis of the deposited data

Results flagged for a closer look

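Barcodes removed by the filters held *Myog* and *Mef2c* that no comparison used. The 1108 removed barcodes, with 611849 UMIs, held 92 *Myog* UMIs and 153 *Mef2c* UMIs. Of these, 60 *Myog* UMIs in 6 barcodes and 103 *Mef2c* UMIs in 19 barcodes lay among the 35 barcodes above the upper limit of UMIs or genes. The 1056 barcodes with too few UMIs or genes held 32 *Myog* and 48 *Mef2c* UMIs. With 3 mice per group, single outlying samples were not tested for.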

How the results depend on the processing

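The calls of *Mef2a* and *Mef2c* in both comparisons of myoid-like cells, and of *Myod1* and *Myog* against CGNP/CGN-like cells, were retained under every alternative run. Between CGNP/CGN-like cells and cells outside the lineage the sign turned for *Mef2a* without the 5% of cells with most UMIs (0.10 on the log2 scale) and for *Mef2c* with at least 1000 UMIs per cell (0.16), and *Mef2c* ran from -0.57 to 0.023 when single mice were left out. Members called there numbered 2 without a filter, 1 with the mouse as a replicate block, and 0 to 1 without single mice, against 0. In differentiating against proliferating cells they numbered 2 without a filter, 2 without the 5% of cells with most UMIs (*Mef2a* and *Mef2c*) and 0 with at least 1000 UMIs, against 1. Without mouse 1 the number stayed at 1, but the member called was *Myod1* in place of *Mef2a*. The joint fit made 10 calls of *Mef2a* and *Mef2c*, and 6 without mouse 2. Without mouse 1 or mouse 3 it has no count, because *Mef2c* was at 0 UMIs in a type. Counts of all genes called also moved. Myoid-like against CGNP/CGN-like cells gave 971, 593 without the 5% of cells with most UMIs, and 542 to 731 without single mice. Myoid-like cells against those outside the lineage gave 752, 1448 without a filter, 496 with at least 1000 UMIs, and 488 to 770 without single mice. Differentiating against proliferating cells gave 1450, 940 with at least 1000 UMIs, and 944 to 1137 without single mice. The granule lineage against cells outside it gave 904, 1563 without a filter, 1583 with the replicate block, and 467 to 791 without single mice. The replicate block changed the call of *Myog* given above and, in the joint fit, those of *Mef2c* in astrocyte-like and interneuron-like cells, which made 12 calls against 10, and it ended the pathway call of *Tead1*. Sign flips within a mouse leave the paralog difference at 41.7 percentage points. The causes were not tested, except that leaving out a mouse or cells leaves fewer samples or UMIs. Resolution 0.4 gave no differentiating group, so that comparison has no value there, and resolutions 0.4 and 1.2 and the set without the 5% of cells with most UMIs gave no Purkinje-like group. Depth limits *Mef2d*, *Myf5* and *Myf6*, with few UMIs in every group.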
